A study of Mus musculus with 12 samples.

Results

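DNA ends left by a double-strand break can be rejoined directly, and the transcripts of 9 genes whose proteins do this or steer it were followed in mouse hippocampus with and without NONO. The genes were taken by name, as the end-joining factors Xrcc5, Xrcc6, Prkdc, Lig4, Xrcc4, Nhej1, Dclre1c, Trp53bp1 and Parp1, and are 9 of the 23329 genes listed for each library. Stranded mRNA libraries were made from the hippocampus of adult C57BL/6 mice. The groups were NONO KO at CT10, wild type (WT) at CT10, NONO KO at CT22 and WT at CT22, with 3 libraries each and 12 in all. The labels name neither the KO allele, nor an exact age, nor the meaning of CT, and whether the 3 libraries of a group stem from different animals is not stated, so the p-values below measure the spread between these libraries, which may be technical.

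In classical non-homologous end joining the Ku ring, made of the XRCC5 and XRCC6 proteins, slides onto a broken end and recruits DNA-PKcs, the kinase encoded by Prkdc. The nuclease Artemis, encoded by Dclre1c, trims ends that cannot be joined as they are, and DNA ligase IV seals them together with its partners XRCC4 and XLF, the product of Nhej1. TP53BP1 protects ends from resection and so favours this route, while PARP1 senses breaks and takes part in single-strand break repair and in an alternative form of end joining. Because neurons no longer divide, they cannot rely on a sister chromatid as a repair template. NONO, together with its partner SFPQ, stimulates end joining in biochemical assays, and it also binds the PERIOD proteins of the circadian clock. The comparison asked whether the RNA of the joining factors differed where NONO was missing.

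The shallowest library, KO CT22 replicate 2, held 4435606 counts, and the deepest, WT CT22 replicate 3, held 10911046. Levels are given as CPM, a gene's counts relative to the TMM-scaled total of its library. The targeted gene followed the genotype labels in every library: Nono had 0, 0.151 and 0.233 CPM in KO at CT10 against 160 to 169 CPM in WT at CT10, and 0.200, 0.672 and 0.483 CPM in KO at CT22 against 150 to 167 CPM in WT at CT22. Its paralog Sfpq averaged 189 ± 19.9 CPM in KO and 147 ± 7.62 CPM in WT (n = 6 each, SD). Over both CT labels its log2 change was 0.36 with an edgeR adjusted p of 0.0398. Its KO mean was 173 CPM at CT10 and 206 CPM at CT22. By label the change was 0.19 at CT10, which did not pass, and 0.53 at CT22 (edgeR adjusted p = 0.0349). The difference between the effects, 0.35, did not pass (edgeR adjusted p = 0.737). The Sfpq change over both labels was 0.33 to 0.38 under 18 alternatives, but passed in only 5 of them. It was lost with the replicate block (adjusted p = 0.108), without the library of each group richest in choroid plexus markers (0.448), without the clock-displaced pair described below (0.253) and on leaving out any 1 of 10 of the 12 libraries (0.0740 to 0.190). The third family member Pspc1 averaged 59.5 ± 4.81 CPM in KO and 45.5 ± 3.36 CPM in WT (log2 change 0.39, edgeR adjusted p = 0.0918). Of 18 alternatives Pspc1 passed in 1, DESeq2 (adjusted p = 0.00551), where Sfpq had 2.5e-06. In the authors' deposited comparison over all libraries the adjusted p was 0.0067 for Pspc1 and 0.0135 for Sfpq. Within each CT label all KO libraries lay above the WT libraries for Sfpq and Pspc1, as for 0.361% of all genes tested. The 12 listed markers of hippocampal principal neurons were all detected. At CT10 9 of 12 were lower in KO, with a median log2 change of −0.06 and 0 at an unadjusted edgeR p under 0.05. Their summed level, which the most abundant genes weigh most, was 6051 to 6319 CPM in KO at CT10, wholly below the 6742 to 7459 CPM in WT. At CT22 the sum was 4534 to 7757 CPM in KO and 5388 to 6951 CPM in WT. There 8 of 12 were higher and 4 lower in KO, with a median log2 change of 0.01. At an unadjusted edgeR p under 0.05 there were 3 at CT22, and DESeq2 called 1 lower. Markers of choroid plexus, 12 genes, summed to 166 to 3616 CPM in KO at CT10, 112 to 1623 CPM in WT at CT10, 90.3 to 3822 CPM in KO at CT22 and 170 to 1588 CPM in WT at CT22. None of the 12 was at 0 in all libraries, and over both labels all 12 were higher in KO (median log2 change 1.31), with 0 past the threshold in edgeR (lowest adjusted p 0.817), 0 at an unadjusted p under 0.05 and 0 called by DESeq2. Other marker lists leaned to one side by genotype too, with 0 genes past the threshold in edgeR, and no list was tested as a set. Over both labels 4 of 5 blood markers tested were higher in KO (median log2 change 0.90, 2 at an unadjusted p under 0.05). So were 7 of 8 markers of thalamus and habenula (0.27). Oligodendrocyte markers were higher in KO in 9 of 10 at CT10 (median 0.15) and lower in 10 of 10 at CT22 (−0.25). Over both labels 7 of 7 striatal markers tested (median log2 change 0.39) and 9 of 10 markers of meninges and fibroblasts (0.63) were higher in KO, while 10 of 10 microglial markers (−0.12) and 7 of 10 astrocytic markers (−0.13; 5 at an unadjusted p under 0.05, and 1 called lower by DESeq2) were lower. Markers of dividing cells, 10 genes, summed to 10.6 to 19.8 CPM across all libraries.

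A pair of KO libraries stood apart in their clock genes. A score was formed as the mean log2 CPM of Per1, Per2, Per3, Dbp, Tef, Nr1d1, Nr1d2 and Ciart minus that of Arntl, Npas2 and Clock. It was 1.09 to 1.35 in WT at CT10 and 0.31 to 0.61 in WT at CT22. KO CT10 replicate 3 had a score of 0.27, nearer to the WT mean of CT22, and KO CT22 replicate 1 had a score of 1.29, nearer to the WT mean of CT10. The other KO libraries had scores of 1.11 and 1.12 at CT10 and of 0.27 and 0.14 at CT22. An exchange of the pair between the KO groups and another source of the displaced scores cannot be told apart here. An exchange would move values between KO at CT10 and KO at CT22 and leave the set of 6 KO libraries as it is. The main changes in the KO groups are therefore also given without these libraries, called the clock-displaced pair below. Leaving out the highest or the lowest value of a group has to move its mean the other way. A change that grows or shrinks without the pair is therefore no test of an exchange.

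All 9 genes were detected in every library and passed the filter on low counts. Per unit of transcript length, in the authors' TPM, Parp1 was the most abundant, at 103 ± 12.4 TPM (mean ± SD, n = 12 here and in the other TPM levels), above 85.6% of the 14131 genes tested. Trp53bp1 followed at 39.3 ± 4.57 TPM. The ranges of these genes over the 12 libraries, 82.0 to 119 TPM for Parp1 and 30.7 to 48.5 TPM for Trp53bp1, lay clear of each other and of the next gene. The Ku subunits Xrcc6 and Xrcc5 stood at 20.7 ± 1.99 and 15.0 ± 1.41 TPM, and the nuclease gene Dclre1c between them at 16.8 ± 2.60 TPM. The ligase complex was lower, with Xrcc4 at 12.4 ± 1.79 TPM, Lig4 at 8.46 ± 0.857 TPM and Nhej1 at 4.94 ± 2.06 TPM. Prkdc, which encodes the largest protein of the set, stood at 6.22 ± 1.10 TPM. From Xrcc6 downwards each gene's range overlapped that of the next in the order. Of the 9 genes, 7 lay below the median of the genes tested, 23.6 TPM.

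**Figure D1:**
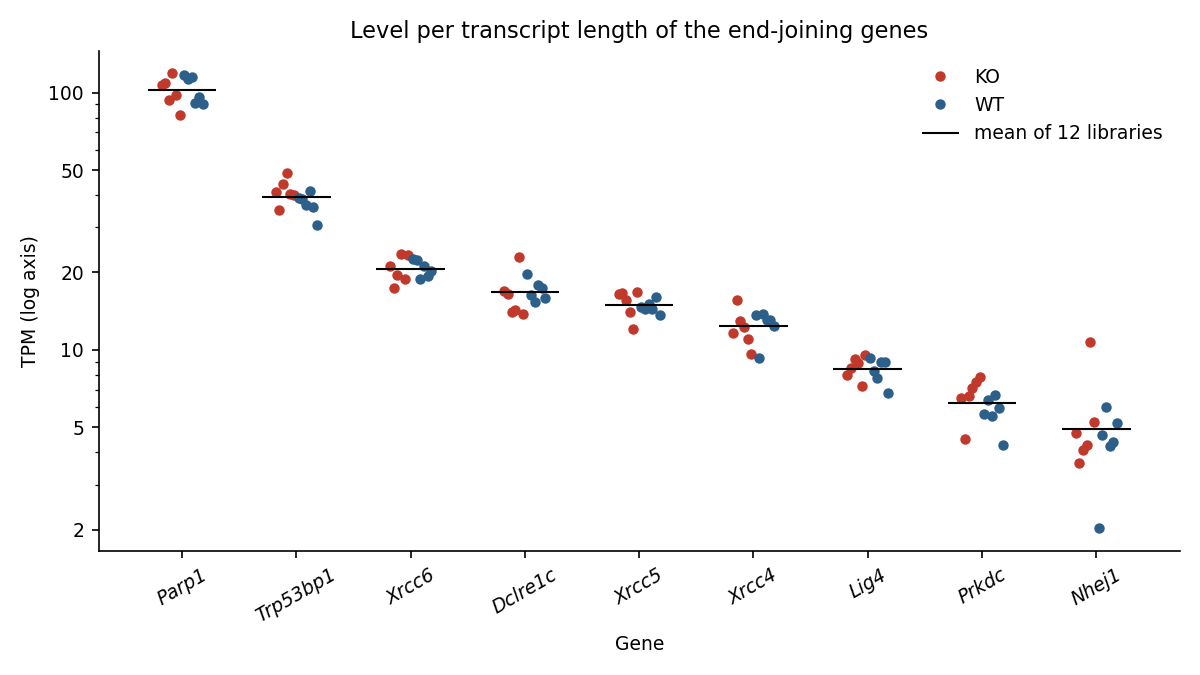
Level of each end-joining gene in TPM on a log axis, with KO libraries in red left of WT libraries in blue and a line at the mean of 12 libraries. Parp1, at 82.0 to 119 TPM, and Trp53bp1, at 30.7 to 48.5 TPM, lie clear of the other 7 genes, whose neighbouring ranges overlap.

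Loss of NONO was not accompanied by a detected change in any of the 9 transcripts. Over both CT labels 5 genes were higher and 4 lower in KO, with a median log2 change of 0.01 against 0.01 over all genes tested. The changes ran from −0.11 for Dclre1c to 0.18 for Nhej1. With edgeR's quasi-likelihood test and Benjamini-Hochberg adjustment over 14131 genes, 0 of 9 passed the threshold of 0.05 (background 0.0212%), and the lowest adjusted p was 0.806, for Trp53bp1. At an unadjusted p under 0.05 the count was also 0 of 9 (background 6.35%), and DESeq2 called 0 of 9. None of the 9 had KO libraries all above the WT libraries within each label (background 0.361%) or all below them (background 0.446%). For the 8 genes other than Nhej1 the 95% intervals of the fold change, KO over WT, lay between 0.768, the lower bound for Xrcc4, and 1.31, the upper bound for Prkdc. The Nhej1 interval was wider, 0.727 to 1.76. In the authors' deposited table, which compares KO with WT over all libraries, the log2 ratios of the same genes ran from −0.12 to 0.17 with adjusted p-values of 0.965 to 1. Without the clock-displaced pair the changes ran from −0.12 for Xrcc4 to 0.32 for Nhej1, with −0.01 for Dclre1c, and 0 of 9 passed (lowest adjusted p 0.855). In whole tissue, fewer cells of a type and less RNA per cell cannot be told apart. No batch is named in the labels, and whether a library was sequenced from one end or both is not assigned there.

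**Figure D2:**
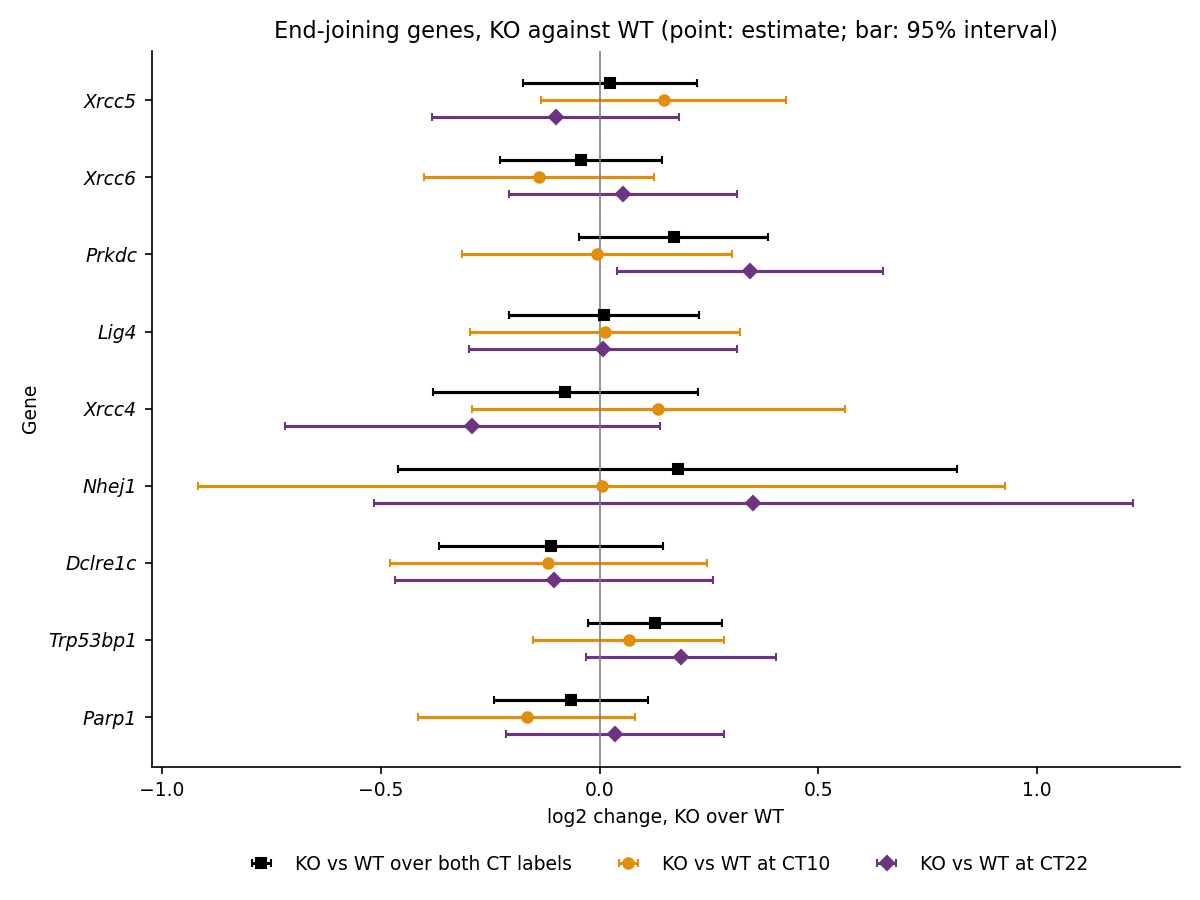
Log2 change, KO over WT, of each end-joining gene over both CT labels (squares), at CT10 (circles) and at CT22 (diamonds), with 95% intervals from edgeR as bars. Prkdc at CT22 (0.34) is the interval that leaves out 0, and Nhej1 has the widest intervals.

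**Figure D3:**
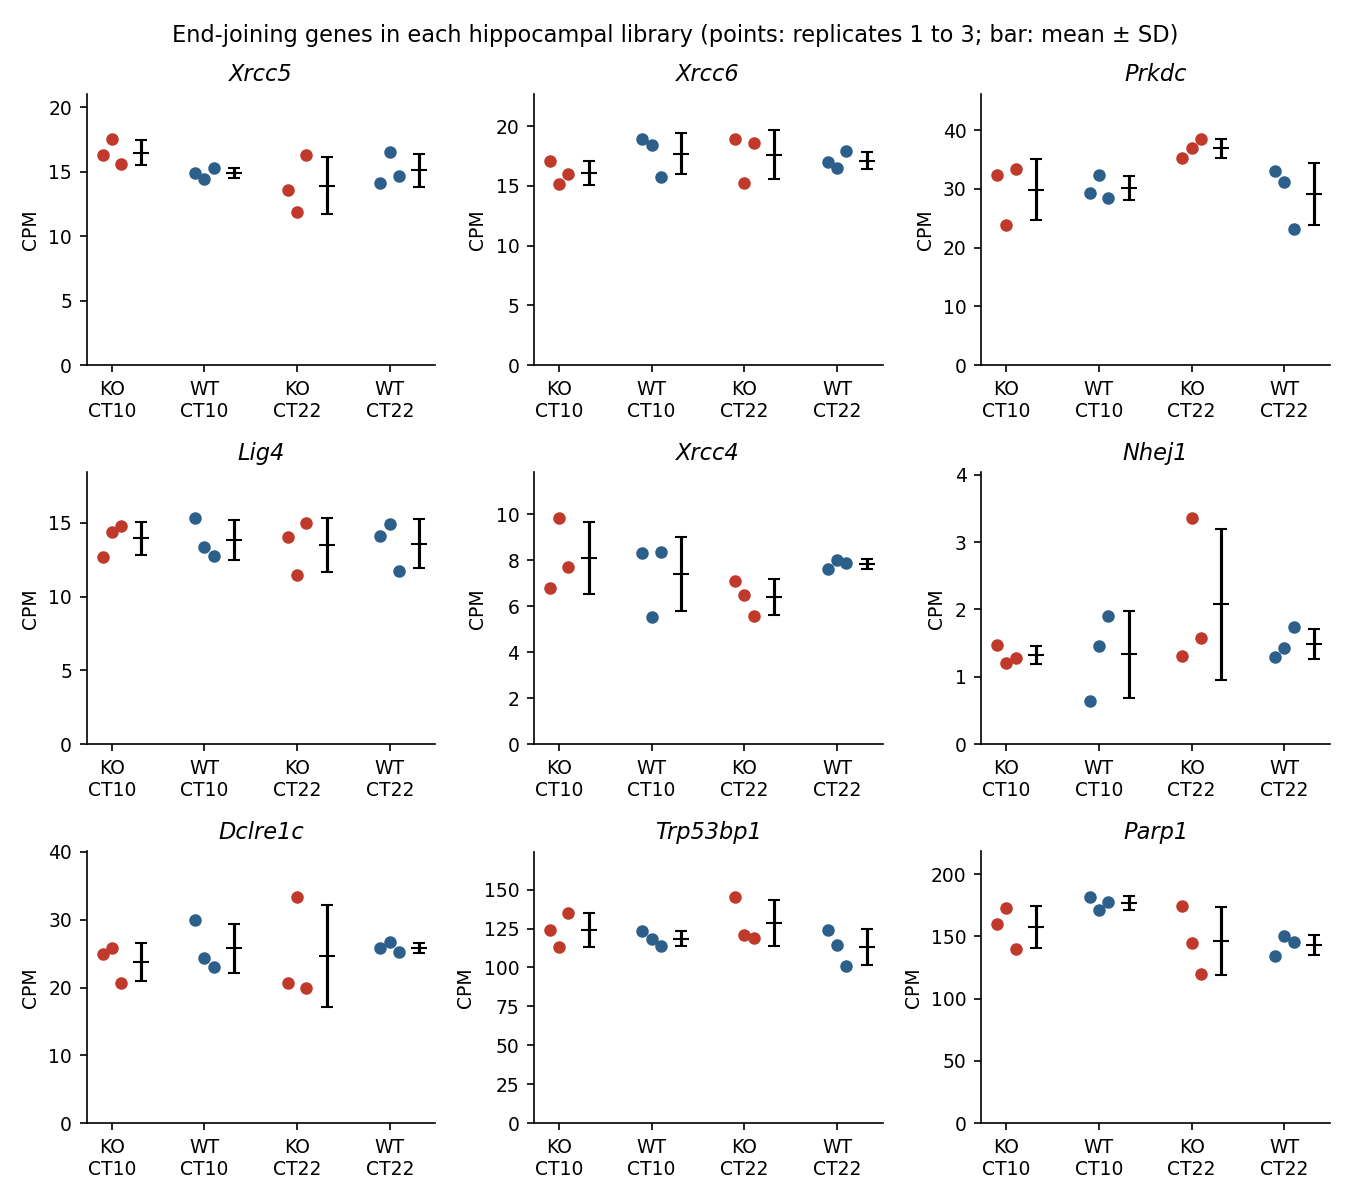
CPM of the 9 genes in each library, by group from left to right KO CT10, WT CT10, KO CT22 and WT CT22, with replicates 1 to 3 as points and mean ± SD (n = 3) as bars. For most genes the points of KO (red) and WT (blue) overlap. Xrcc5 separates at CT10 (higher in KO, as 4.9% of all genes tested). At CT22 Prkdc (higher, as 7.25%) and Xrcc4 (lower, as 6.49%) separate.

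The Ku genes moved in no common direction. Xrcc5 (chromosome 1, 72307421 to 72394953, plus strand, build mm10 as in the deposited files, like the positions below) had 16.3, 17.6 and 15.6 CPM in KO at CT10, against 14.9, 14.5 and 15.3 CPM in WT at CT10. At CT22 it had 13.6, 11.9 and 16.3 CPM in KO and 14.1, 16.6 and 14.7 CPM in WT. At CT10 all 3 KO libraries lay above the WT libraries, as 4.9% of all genes tested did, while at CT22 the groups overlapped. No gene of the 9 had all KO libraries below WT at CT10 (background 5.43%). The difference at CT10 was 1.11-fold (log2 change 0.15, SE 0.13; 0.18 without the clock-displaced pair) and did not pass (adjusted p = 1.00). The summed neuron markers given above separated at the same label, and their part in the value was not tested. Xrcc6 (chromosome 15, 82016369 to 82040084, plus strand) had 17.1, 15.1 and 16.0 CPM in KO at CT10 and 18.9, 18.4 and 15.7 CPM in WT at CT10. Its CT22 values were 18.9, 15.2 and 18.6 CPM in KO and 17.0, 16.5 and 17.9 CPM in WT. The groups overlapped at both labels, and over both labels the log2 change was −0.04 (SE 0.09, adjusted p = 0.947), and −0.07 without the clock-displaced pair. Over the 12 libraries the log2 CPM of the Ku subunits, which form an obligate heterodimer, had a Pearson r of −0.07, given here as a description of libraries that share 4 groups.

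Prkdc, the gene of the DNA-PK catalytic subunit (chromosome 16, 15637866 to 15842239, plus strand), had the lowest adjusted p-value of the 9 genes over all comparisons. At CT22 it stood at 35.3, 37.0 and 38.5 CPM in KO and at 33.1, 31.2 and 23.1 CPM in WT. Every KO library lay above every WT library, as 7.25% of all genes tested did at this label, and the lowest WT value belonged to replicate 3. The difference was 1.27-fold (95% interval 1.03 to 1.57, log2 change 0.34, SE 0.14) with an unadjusted p of 0.0292, where 10.9% of all genes had a p under 0.05. It did not pass the adjustment (edgeR adjusted p = 0.423; DESeq2 0.357). Without WT CT22 replicate 3 the log2 change was 0.20. Without the library of each group richest in choroid plexus markers it was 0.16 (adjusted p = 0.838). At CT22 these libraries were replicate 3 of KO, with the highest KO value, and replicate 3 of WT, with the lowest WT value. Leaving them out had to lower the change, and the part of choroid plexus tissue in the value was not tested. Without the clock-displaced pair, which held the lowest KO value at CT22, the log2 change was 0.37 (adjusted p = 0.571). At the same label 7 of 7 striatal markers tested were higher in KO (median log2 change 0.69, 4 at an unadjusted p under 0.05), and the list summed to 188 to 300.3 CPM in KO and 152 to 177 CPM in WT. Of the microglial markers 9 of 10 were lower (median −0.23, 5 at an unadjusted p under 0.05), with sums of 474 to 517 CPM in KO and 527 to 614 CPM in WT. None of these markers was at 0 in all libraries, and their part in the Prkdc value was not tested. At CT10 Prkdc had 32.3, 23.9 and 33.5 CPM in KO against 29.4, 32.4 and 28.5 CPM in WT, with overlapping groups and a log2 change of −0.01 (SE 0.14; −0.10 without the clock-displaced pair). The difference between the effects at CT22 and CT10 was 0.35 on the log2 scale (SE 0.20, edgeR adjusted p = 0.737), and 0.47 without the clock-displaced pair (adjusted p = 0.873).

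The Prkdc transcript is the longest of the set, and transcript length went with the change across all genes at CT22. With 12674 bases it compares with a median of 2944 bases among the genes tested. Across the 14131 genes, which are not independent replicates, Spearman's rho between transcript length and log2 change was 0.44 for KO against WT at CT22, −0.09 at CT10 and 0.31 over both labels. Among the 9 genes it was 0.15, −0.08 and 0.13 in the same order. For the difference between the effects rho was 0.40 across all genes and 0.20 among the 9. For CT22 against CT10 it was 0.39 in KO and −0.23 in WT across all genes, and 0.13 and −0.68 among the 9. The part of transcript length in the Prkdc values was not tested.

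Dclre1c, the Artemis gene (chromosome 2, 3424131 to 3461116, plus strand), was spread widely in KO at CT22. It had 20.7, 33.4 and 19.9 CPM there, against 25.8, 26.7 and 25.2 CPM in WT at CT22. The high value came from replicate 2, the shallowest library, and without it the log2 change at CT22 was −0.35, compared with −0.10 with it (SE 0.17, adjusted p = 0.835). Without the clock-displaced pair it was −0.0010. At CT10 it had 24.9, 25.9 and 20.6 CPM in KO and 29.9, 24.4 and 23.1 CPM in WT, again overlapping. It is the one gene of the set listed with several transcripts. The main one, NM_146114, held 93.4% ± 2.57 of the gene's estimated count in KO and 93.4% ± 2.15 in WT (SD, n = 6 each; exact two-sided permutation test over 924 splits, p = 0.998). Dclre1c shares 210 exonic bases with Suv39h2 on the opposite strand. On strand use in the counting the sources used here give nothing, so reads of that stretch cannot be assigned with certainty. Suv39h2 itself averaged 4.40 ± 0.329 CPM in KO and 4.26 ± 0.923 CPM in WT (n = 6 each).

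The ligase gene had nearly equal levels in KO and WT, and its partners varied more between libraries. Lig4 (chromosome 8, 9970020 to 9976323, minus strand) had 12.7, 14.4 and 14.8 CPM in KO at CT10 and 15.3, 13.3 and 12.8 CPM in WT at CT10. At CT22 it had 14.0, 11.4 and 15.0 CPM in KO and 14.1, 14.9 and 11.7 CPM in WT. The averages over all 6 libraries of a genotype were 13.7 ± 1.39 CPM in KO and 13.7 ± 1.36 CPM in WT. The fold change over both labels was 1.01 with a 95% interval of 0.866 to 1.17 (adjusted p = 0.990), and the log2 change without the clock-displaced pair was −0.03.

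Xrcc4, which encodes the scaffold that stabilises ligase IV (chromosome 13, 89848914 to 90089608, minus strand), was lower in all KO libraries at CT22. The values were 7.11, 6.50 and 5.56 CPM in KO and 7.60, 8.01 and 7.88 CPM in WT. The groups did not overlap, as for 6.49% of all genes tested in this direction. The difference of 0.817-fold (95% interval 0.607 to 1.10, log2 change −0.29, SE 0.20) did not pass (adjusted p = 0.590). Without the clock-displaced pair, which held the highest KO value at CT22, the log2 change had to fall and was −0.40 (adjusted p = 0.625). The striatal and microglial sums given for Prkdc separated here too, and their part was not tested. At CT10 it had 6.80, 9.84 and 7.69 CPM in KO and 8.31, 5.52 and 8.37 CPM in WT, where the highest value of all was a KO library and the lowest a WT library. The difference between the effects at the 2 labels was −0.43 on the log2 scale (SE 0.28, edgeR adjusted p = 0.740), and −0.57 without the clock-displaced pair (adjusted p = 0.873). Nhej1, the XLF gene (chromosome 1, 74967346 to 75046639, minus strand), was read at only 5 to 19 counts per library. It had 1.47, 1.21 and 1.28 CPM in KO at CT10, 0.639, 1.46 and 1.91 CPM in WT at CT10, 1.303, 3.36 and 1.57 CPM in KO at CT22 and 1.301, 1.43 and 1.74 CPM in WT at CT22. A single library, KO CT22 replicate 2 with 15 counts, set the direction at CT22: the log2 change was 0.35 (SE 0.41, adjusted p = 0.759) with it and −0.07 without it. Without the clock-displaced pair, which held the lowest KO value at CT22, the change had to rise and was 0.61 (adjusted p = 0.671). The exact Poisson interval of the value in KO CT22 replicate 2, which covers counting error only, was 1.88 to 5.54 CPM. The 95% interval of the Nhej1 fold change at CT22 was 0.699 to 2.33. Such an interval describes the estimate and is no limit of detection, so at these counts a difference in Nhej1 could have been missed.

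Trp53bp1, whose protein steers breaks towards end joining (chromosome 2, 121196727 to 121271386, minus strand), had the smallest standard errors of the 9 genes. It stood at 124, 113 and 135 CPM in KO at CT10 and at 123, 118 and 114 CPM in WT at CT10. At CT22 it stood at 145, 121 and 119 CPM in KO and at 124, 114 and 101 CPM in WT. The highest library of the 12, at 145 CPM, was KO CT22 replicate 1, one of the clock-displaced pair, and the second highest, at 135 CPM, was KO CT10 replicate 3, the other. Over both labels the fold change was 1.09 (95% interval 0.981 to 1.21, log2 change 0.13, SE 0.07, adjusted p = 0.806), and without that pair the log2 change was 0.04 (adjusted p = 0.948). The gene shares 384 exonic bases with Tubgcp4 on the opposite strand, which averaged 18.8 ± 0.783 CPM in KO and 18.4 ± 2.24 CPM in WT (n = 6 each).

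Parp1 (chromosome 1, 180568975 to 180601254, plus strand) had 160, 173 and 140 CPM in KO at CT10 and 182, 171 and 177 CPM in WT at CT10. At CT22 it had 175, 145 and 120 CPM in KO and 134, 150 and 146 CPM in WT. The WT libraries fell into a narrow band at each label, whereas the KO libraries were spread more widely at each label. Over both labels the fold change was 0.955 (95% interval 0.846 to 1.08, log2 change −0.07, SE 0.08, adjusted p = 0.918), and the log2 change without the clock-displaced pair was −0.11. At CT22 the log2 change was 0.03 (SE 0.12), and −0.12 without the clock-displaced pair (adjusted p = 0.705).

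Taken by label, KO against WT gave 0 of 9 calls in edgeR at CT10 (background 0.00708%) and 0 of 9 at CT22 (background 0.0142%). At an unadjusted p under 0.05 there were 0 at CT10 (background 3.09%) and 1 at CT22 (background 10.9%), which was Prkdc. The median log2 change of the 9 genes was 0.00 at CT10 and 0.03 at CT22, against 0.00 and 0.00 over all genes tested. For the difference between the effects edgeR called 0 of 9 (background 0%), with 0 at an unadjusted p under 0.05 (background 6.09%). The lowest adjusted p among the 9 was 0.737, for Prkdc. DESeq2 called 0 of 9 in each of these comparisons, although it gave no adjusted p for 4 of the 9 at CT22 (Xrcc5, Lig4, Xrcc4 and Nhej1).

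A further question of the design was whether the genes differ between the CT labels. Parp1 was lower at CT22 than at CT10 in WT, with 134, 150 and 146 CPM at CT22 against 182, 171 and 177 CPM at CT10. The groups did not overlap, as for 8.54% of all genes tested in this direction. The fold change, CT22 over CT10, was 0.811 (95% interval 0.683 to 0.962, log2 change −0.30, SE 0.12) with an unadjusted p of 0.0198, where 6.76% of all genes had a p under 0.05. It did not pass the adjustment (edgeR adjusted p = 0.722; DESeq2 0.759). In KO the groups overlapped, with 175, 145 and 120 CPM at CT22 against 160, 173 and 140 CPM at CT10 (log2 change −0.10, SE 0.12, adjusted p = 0.977).

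The pair of KO libraries with displaced clock genes held the highest or the lowest Parp1 value of their groups. KO CT22 replicate 1, with a clock score of 1.29, had the highest Parp1 level of its group, 175 CPM. KO CT10 replicate 3, with a score of 0.27, had the lowest of its group, 140 CPM. Scores fall into separate clusters, so no correlation is given. Without the pair the log2 change of Parp1, CT22 over CT10, was −0.33 in KO (adjusted p = 0.627) and −0.30 in WT (adjusted p = 0.435), still short of the threshold. Leaving out the highest KO value at CT22 and the lowest at CT10 had to move the KO change downwards. The KO value is therefore no test of an exchange or of a difference between the labels.

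**Figure D4:**
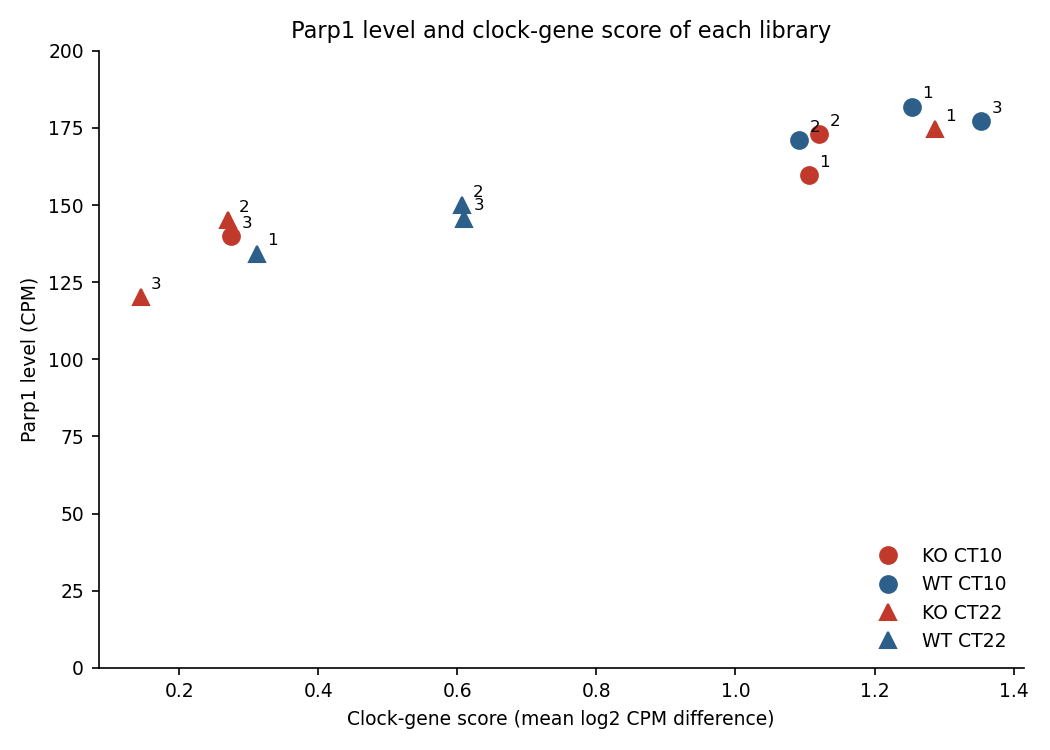
Parp1 level in CPM against the clock-gene score (mean log2 CPM of 8 genes minus that of 3 others) of each of the 12 libraries, numbered by replicate, KO in red, WT in blue, CT10 as circles, CT22 as triangles. KO CT22 replicate 1 (score 1.29, 175 CPM) lies among the CT10 libraries and KO CT10 replicate 3 (score 0.27, 140 CPM) among the CT22 libraries.

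Of the other genes, Prkdc was the one whose CT groups did not overlap in KO. It had 35.3, 37.0 and 38.5 CPM at CT22 against 32.3, 23.9 and 33.5 CPM at CT10, a separation in this direction that 4.3% of all genes tested shared, while 0 of 9 separated the other way (background 3.66%) (log2 change 0.30, SE 0.14, adjusted p = 0.977). Without the clock-displaced pair it was 0.42 (adjusted p = 0.643). Transcript length went with this change across all genes, as given above, and its part in the Prkdc value was not tested. In WT the Prkdc groups overlapped, with a log2 change of −0.05 (SE 0.14), and 0 of 9 genes had all WT libraries of CT22 above those of CT10 (background 7.69%). In each genotype edgeR called 0 of 9 genes between the CT labels (background 0% in KO and 0% in WT). At an unadjusted p under 0.05 the counts were 0 in KO (background 3.16%) and 1 in WT (background 6.76%), where the gene was Parp1. DESeq2 called 0 of 9 in both genotypes. The median log2 change, CT22 over CT10, was 0.02 in KO and −0.03 in WT.

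**Figure D5:**
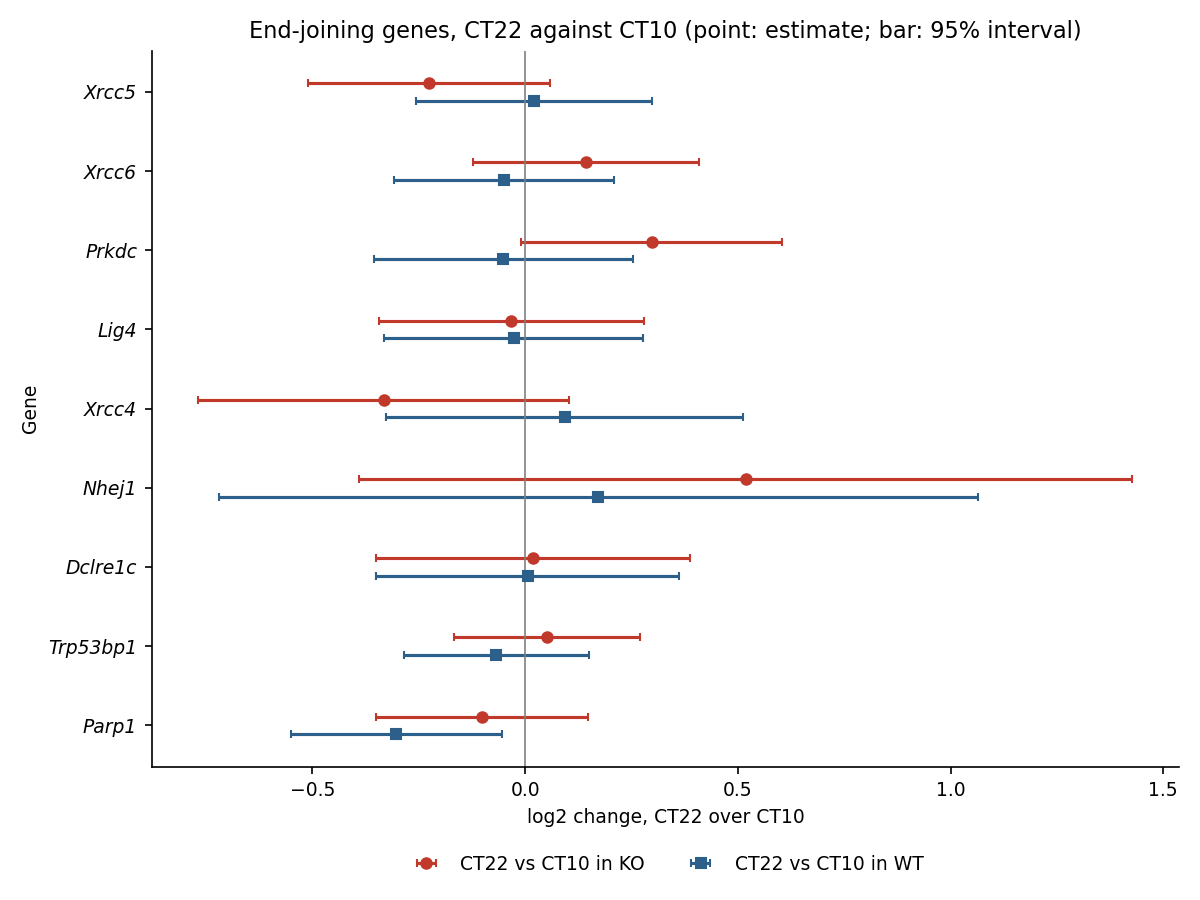
Log2 change, CT22 over CT10, of each end-joining gene in KO (red circles) and in WT (blue squares), with 95% intervals from edgeR as bars. Parp1 in WT (−0.30) is the one interval that leaves out 0, and Prkdc and Xrcc4 in KO point in opposite directions (0.30 and −0.33).

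Clock transcription factors of the CLOCK and BMAL1 type bind the E-box CACGTG, a palindrome that reads the same on both strands. In the RefSeq promoter sequences (build GRCm38.p6) 8 of the 9 genes have an entry, and the 250 bases before the start hold this motif in Parp1 and Xrcc5. They are shown because Parp1 is the gene that separated by CT label in WT and Xrcc5 is the other with the same letters. The stretches are written 5′ to 3′ on the plus strand with the E-box in capitals and 30 bases on either side, chr1:180568812-180568877 for Parp1 and chr1:72307193-72307258 for Xrcc5.
Parp1: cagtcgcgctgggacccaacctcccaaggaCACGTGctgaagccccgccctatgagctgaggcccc
Xrcc5: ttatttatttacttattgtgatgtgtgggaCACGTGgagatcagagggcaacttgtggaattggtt
The Parp1 motif begins 49 bases before the RefSeq start and 133 bases before the start of the transcript that was counted, and the Xrcc5 motif begins 198 bases before the start. Of all 32851 promoter windows of this length 6.02% hold the motif, and of the 12942 windows of genes tested 8.06%. Xrcc5 did not follow the pattern of Parp1, with a log2 change of 0.02 (SE 0.13), CT22 over CT10, in WT. A match of letters is a description and not a measured binding site.

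No gene of 5 neighbouring repair lists passed in KO against WT over both labels. Of 13 further genes of classical end joining that could be tested out of 16 listed, 0 passed (8 higher and 5 lower, median log2 change 0.12). Named by the smallest p-values, the gap-filling polymerase gene Poll averaged 9.80 ± 1.48 CPM in KO and 11.9 ± 1.44 CPM in WT (log2 change −0.29, adjusted p = 0.705). Mad2l2, a shieldin and polymerase zeta subunit, averaged 9.98 ± 1.18 CPM in KO and 8.43 ± 1.05 CPM in WT (log2 change 0.24, adjusted p = 0.773; SD, n = 6 each here and below). Dntt, the template-free polymerase of lymphocytes, averaged 0.109 CPM over all libraries and was not tested.

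In alternative end joining and single-strand break repair 0 of 12 genes passed (8 higher and 4 lower, median 0.05). Parp3, a relative of Parp1 that promotes end joining, averaged 4.69 ± 0.695 CPM in KO and 3.39 ± 0.625 CPM in WT (log2 change 0.44, SE 0.17, unadjusted p = 0.0180, edgeR adjusted p = 0.703). The base excision glycosylase gene Ogg1 averaged 5.50 ± 0.747 CPM in KO and 6.64 ± 0.511 CPM in WT (log2 change −0.27, adjusted p = 0.780). In break sensing and signalling 0 of 17 genes tested passed (10 higher and 7 lower, median 0.04), and the deubiquitinase gene Brcc3 (log2 change −0.18, adjusted p = 0.751) and the ubiquitin ligase gene Rnf168 (−0.11, adjusted p = 0.813) had the smallest p-values.

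Homologous recombination, the route that copies a sister chromatid, gave 0 of 18 genes tested (8 higher and 10 lower, median −0.01). Rpa2, a subunit of the single-strand binding complex, had a log2 change of −0.25 (adjusted p = 0.773). Among p53 and its targets 0 of 17 passed (6 higher and 11 lower, median −0.05), with Sesn2 (−0.22, adjusted p = 0.757) and Trp53inp1 (−0.22, adjusted p = 0.802) named by the same rule. In the comparisons within a CT label, between labels and for the difference between effects, 0 genes of these 5 lists passed in edgeR either. Over both labels each list held 1 gene at an unadjusted p under 0.05 in edgeR (background 6.35%). In the other comparisons the counts were 0 to 2 per list, except that the p53 list held 4 of 17 at CT22 (background 10.9%), 3 of 17 for the difference between effects (background 6.09%) and 3 of 17 for CT22 against CT10 in WT (background 6.76%). DESeq2 called 0 genes of the 5 lists in all 6 comparisons, with many adjusted p-values not given at CT22.

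Among the 9 genes the levels over the 12 libraries did not run together as a group. The highest Pearson r of log2 CPM was 0.66, between Prkdc and Trp53bp1, the genes with the longest transcripts (12674 and 7711 bases). Xrcc5 and Lig4 had 0.55. The lowest values were −0.77 between Lig4 and Nhej1 and −0.72 between Prkdc and Xrcc4. Nhej1 was read at only 5 to 19 counts per library. The shallowest library, KO CT22 replicate 2, held both its highest level, 3.36 CPM, and the lowest level of Lig4, 11.4 CPM. These are descriptions of 12 libraries that share groups and depth. The gene most like each member was sought among those of at least 10 CPM. For Prkdc it was Wdfy3 (r = 0.98), for Trp53bp1 Arhgef7 (0.97), for Parp1 Dgat2 (0.94), for Xrcc4 Ppp1r8 (0.91) and for Xrcc5 Psmd1 (0.91). For Lig4 it was Nudt10 (0.90), for Xrcc6 Rbpj (0.89) and for Dclre1c Snupn (0.87). Transcripts of gene and match had 12674 and 14277 bases for Prkdc, 7711 and 4929 for Trp53bp1, and 3827 and 2251 for Parp1. They had 1547 and 2041 bases for Xrcc4, 2556 and 3256 for Xrcc5, and 4081 and 1751 for Lig4. For Xrcc6 they had 2113 and 5541 bases, and for Dclre1c 4061 and 1338. Each was the highest r among 10191 or 10192 candidate genes, and Nhej1 was too low for this search.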

How the data were processed

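Stranded mRNA libraries from hippocampus were sequenced with reads from one end or both, per the labels' protocols. The tools were TopHat 1.3.3, FastQC, edgeR 3.0.6 and RSEM 1.2.5 with build mm10, per the submitters' processing notes. Per the file headers, estimated counts and TPM of 30383 transcripts were deposited for each library. A table by the authors, deposited for all libraries, holds a log2 ratio, p-values and 12 columns of normalised signal, and of its columns of per-sample values 0 were left unmatched. Estimated counts were summed per gene symbol (23329 genes) and rounded. RSEM divides reads that fit several transcripts by estimation, and the counts of Dclre1c were fractional in all 12 libraries, of Parp1 and Trp53bp1 in 4 each and of Prkdc in 1.

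Tests used edgeR 4.0.16 in R 4.3.3 (filterByExpr with a minimum count of 10, TMM factors 0.979 to 1.021, robust quasi-likelihood fit of 4 group means to 12 libraries, biological coefficient of variation 12.3%). Adjustment by Benjamini-Hochberg ran over 14131 genes with a threshold of 0.05. The steps were tested on simulated data. Alternatives were DESeq2 1.42.0, its size factors, no filter, a replicate block, the compared groups alone and left-out libraries. Samples were grouped by their titles. Gene coordinates are those of the deposited files (mm10), and promoter sequences are from RefSeq (GRCm38.p6). The members, gene lists, tests and naming rule (the 9 genes, Nono with Sfpq and Pspc1, and per list the genes called or the pair of smallest p with at least 2 CPM) were chosen with earlier results of these data known. One gene named by this rule is not reported here.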

Additional observations from a re-analysis of the deposited data

Results flagged for a closer look

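In 2 of 18 sets of 6 libraries of one genotype, one library lay far from the others by Dixon's criterion, which chance alone meets in about 1 of 20 sets. Nhej1 stood at 3.36 CPM in KO CT22 replicate 2, with 15 counts in the shallowest library, and Xrcc4 stood at 5.52 CPM in WT CT10 replicate 2.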

How the results depend on the processing

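The 9 genes gave 54 results over 6 comparisons, and 1008 values under alternatives. None passed the threshold (lowest adjusted p 0.179), 927 kept their direction and 81 had the opposite sign. Of the 54 results, 24 kept their direction under every alternative run. Among them were Prkdc and Xrcc4 for KO against WT at CT22 and Parp1 for CT22 against CT10 in WT. The groups of these named results did not overlap, so their direction with libraries left out was set beforehand and is no support for them. The cause of the changes of sign was not tested. Nhej1 was read at 5 to 19 counts per library.

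The number of genes called for KO against WT over both labels was 3 in edgeR, 22 in DESeq2, 10 with no filter on low counts, 1 when each group lost its library richest in choroid plexus markers and 1 without the clock-displaced pair of KO libraries. For KO against WT at CT10 it was 1, against 3 in DESeq2 and 4 with only the groups compared. For KO against WT at CT22 it was 2, against 31 in DESeq2 and 1 each without the choroid-rich libraries, without the clock-displaced libraries and with only the groups compared. For CT22 against CT10 in WT it was 0, against 4 in DESeq2, 1 without the clock-displaced libraries and 2 with only the groups compared, and for CT22 against CT10 in KO it was 0, against 1 without the clock-displaced libraries. Leaving out one library at a time gave 1 to 8 over both labels, 1 to 4 at CT22 and 0 to 1 for CT22 against CT10 in WT.

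No sign of pairing by replicate number was seen, although these values cannot exclude it and the labels do not state it. Deviations of libraries with the same number had correlations of −0.24 to 0.33, over 0.1 in 4 of 18 pairs. For libraries with different numbers they were −0.30 to 0.29, over 0.1 in 9 of 36 pairs. With the replicate block the count was 1 over both labels and 1 at CT22, and no member was called.

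In DESeq2 and with no filter the Nhej1 change at CT10, KO over WT, was −0.0032 and −0.00054, and with no filter that of Lig4 at CT22 was −0.0029. Without the choroid-rich libraries the log2 changes, KO over WT, became −0.039 for Xrcc5, −0.067 for Lig4 and 0.080 for Xrcc4 over both labels, and −0.17 for Lig4 and 0.00050 for Dclre1c at CT22. In the same setting the changes CT22 over CT10 became 0.036 for Parp1 in KO, and 0.056 for Prkdc, 0.021 for Lig4 and −0.045 for Dclre1c in WT. Without the clock-displaced libraries the changes, KO over WT, became −0.029 for Lig4 over both labels, −0.037 for Lig4 and −0.0023 for Trp53bp1 at CT10, and −0.0086 for Xrcc6, −0.022 for Lig4 and −0.12 for Parp1 at CT22. The difference between effects became 0.015 for Lig4 and −0.033 for Parp1.

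With libraries left out one at a time, signs changed within these ranges of log2 change. For KO over WT over both labels they were −0.043 to 0.062 for Xrcc5, −0.039 to 0.051 for Lig4 and −0.033 to 0.33 for Nhej1. At CT10 they were −0.093 to 0.12 for Prkdc, −0.037 to 0.093 for Lig4, −0.049 to 0.25 for Xrcc4, −0.32 to 0.30 for Nhej1 and −0.19 to 0.0014 for Dclre1c. At CT22 they were −0.010 to 0.13 for Xrcc6, −0.090 to 0.088 for Lig4, −0.071 to 0.61 for Nhej1, −0.35 to 0.016 for Dclre1c and −0.13 to 0.16 for Parp1. For the difference between effects they were −0.10 to 0.074 for Lig4, −0.075 to 0.67 for Nhej1 and −0.24 to 0.13 for Dclre1c. For CT22 over CT10 they were −0.11 to 0.052 for Lig4, −0.23 to 0.14 for Dclre1c, −0.055 to 0.12 for Trp53bp1 and −0.26 to 0.025 for Parp1 in KO, and −0.049 to 0.072 for Xrcc5, −0.15 to 0.093 for Prkdc, −0.099 to 0.070 for Lig4, −0.091 to 0.19 for Xrcc4, −0.15 to 0.47 for Nhej1, −0.065 to 0.12 for Dclre1c and −0.14 to 0.010 for Trp53bp1 in WT. The share of the main Dclre1c transcript, KO minus WT, ran from −0.64 to 0.67 points around a main value of 0.0038.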
